A study of Brassica napus with 18 samples.

Results

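The 42 genes described here were transcribed in the shoot apex of every oilseed rape library that carries haplotype 2 of BnaC3.LFY and left next to no reads in the libraries that carry haplotype 1. They were selected on their measured counts, out of the 107233 gene models of the deposited table. A gene model was taken when it had at least 1 CPM (the count per 1000000 counts of its library) in each of the 9 haplotype 2 libraries, a summed count of 3 or less over the 9 haplotype 1 libraries, and an identifier that does not begin with BnaC02T, the prefix of chromosome C02. The contrast between the haplotypes is therefore what chose these genes, and it is given below as a description without a test. CPM is a share of the reads of a library and is not corrected for transcript length, so CPM values of different genes are compared only as shares of reads.

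Oilseed rape (Brassica napus) joins the genomes of a pair of parent species, called the A and the C subgenome, and most genes of one subgenome have a related copy in the other. LEAFY (LFY) is a transcription factor that gives young meristems on the flanks of the shoot apex their floral identity, and BnaC3.LFY is its copy on chromosome C03. Accessions of one crop species differ in which gene copies they carry as well as in how strongly they transcribe them. In a count table, a gene that is missing from an accession, a gene whose sequence has diverged so far that its reads no longer align, and a gene that is intact but not transcribed all appear as an empty row, and these cases cannot be told apart here.

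Poly(A)-selected RNA libraries were made from field-grown shoot apices of 6 accessions, with 3 libraries from each. Haplotype 1 is that of R5044, R5159 and R5161, and haplotype 2 that of R4168, R4210 and R4817. The design asks how the transcriptomes of the haplotypes differ. No treatment, plant age or harvest time is given in the sources used here, and haplotype and accession background cannot be told apart with accessions that differ in more than this locus. Whether an accession's libraries stem from different plants is not stated. A p-value among haplotype 2 accessions therefore reflects the scatter of these libraries alone, and that scatter may be technical. The main haplotype test of neighbouring gene models, given below, works on accession sums, so its error is the scatter between accessions. The identifiers matched 0 of the 123214 entries of the RefSeq name table, so the genes are called by their identifiers, no function is given for them, and markers of the shoot apex could not be looked up. In bulk tissue, fewer cells of a type and less RNA per cell cannot be told apart.

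Library totals ran from 21960992 to 41459636 counts, and came to 300354433 for haplotype 1 and 237319044 for haplotype 2. The limit of 3 counts over haplotype 1 corresponds to 0.00999 CPM, and a gene at 1 CPM would have left about 300.4 counts there. Replicate 3 of R5159 differed from both other libraries of that accession by a median of 0.451 and 0.444 on the log2 scale over 40527 genes, more than any other pair within an accession. Among haplotype 2 libraries the widest pair was replicates 1 and 2 of R4817, at 0.358, against 0.175 to 0.298 for the other 8 pairs. Related copies on the A and C subgenomes may share reads, and this holds for each gene named.

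Haplotype 1 libraries held almost no reads of these genes, as the choice of the genes requires. Of the 42 genes, 26 had 0 counts in all 9 haplotype 1 libraries, 4 had 1 count, 7 had 2 counts and 5 had 3 counts. Together they had 33 counts in haplotype 1 against 105648 in haplotype 2. The 33 counts were spread over the accessions, with 13 counts in 7 genes in R5044, 12 counts in 8 genes in R5159 and 8 counts in 5 genes in R5161. A single haplotype 1 library held between 0 and 10 of them, and no gene had more than 3 counts in 1 library, whereas each haplotype 2 library held between 8999 and 15520.

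For the 26 genes at 0 counts, haplotype 2 was at least 164-fold to at least 4245-fold higher, with a median bound of 690-fold, taking 3 counts over the group as the limit that a count of 0 allows. These bounds cover counting error only. The top bound belongs to BnaC01T0263300ZS, which had 10062 counts in haplotype 2. For the 16 genes with 1 to 3 counts the ratio of the groups ran from 299 to 3624, with a median of 1200. The lowest ratio was that of BnaA09T0554700ZS, at 299 (exact 95% interval of the ratio, 102 to 1452), whose 3 counts were all in R5044. BnaA05T0425200ZS had 3 counts in haplotype 1, 1 in R5044 and 2 in R5159, and a ratio of 2649 (906 to 12850). Both intervals cover counting error only and do not allow for the limit of 3 counts that chose the genes.

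The limits of the choice cut through a gradual range. Just inside, 4 of the 42 genes had a lowest haplotype 2 library under 1.2 CPM, and BnaC03T0493700ZS was at 1.00 CPM in replicate 3 of R4817. Just outside the count limit, 13 genes had 4 counts in haplotype 1. Among them BnaA08T0272300ZS, BnaC03T0208000ZS and BnaA08T0250700ZS had lowest haplotype 2 libraries at 14.9, 6.97 and 5.76 CPM. A further 72 genes had 11 to 30 counts. Just outside the CPM minimum, 31 genes met the count limit with a lowest library at 0.5 to 1 CPM, led by BnaA02T0382800ZS at 0.973, BnaC05T0008900ZS at 0.965 and BnaC07T0083900ZS at 0.837 CPM. These values describe the edge of the set and carry no test.

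Which genes qualify depended on each accession that was read. When R5044, R5159 or R5161 was not read, 80, 93 and 95 genes qualified, and when R4168, R4210 or R4817 was not read, 107, 47 and 109 did. Leaving R5159 unread added 51 genes, of which 23 lay on C09. Leaving R5161 unread added 53, of which 21 lay on A09. Many of the genes added in these cases thus lay on a single chromosome, and whether they adjoin each other was not tested.

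The same rule applied to C02 alone gave 68 genes. The rule with the haplotypes exchanged was applied to all chromosomes, with C02 not left out. It gave 30 genes, of which 20 lay on the C subgenome. The haplotype 2 levels of the 42 genes, the C02 genes and the haplotype 1 levels of the exchanged set had medians of 6.67, 6.75 and 6.89 CPM. By read share the 3 sets were close.

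The 42 genes were spread over 17 of the 19 chromosomes rather than gathered in 1 block. The C subgenome held 29 of them (69.0%) and the A subgenome 13, with none on unplaced scaffolds, none on A08 and none on C02, which the choice left out. Of the 33029 genes outside C02 at 1 CPM or more in all 9 haplotype 2 libraries, 49.4% lay on the C subgenome. Per 1000 such genes, 1.78 on the C subgenome and 0.78 on the A subgenome belonged to the set, against 1.27 over both.

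Chromosome C01 held the most, with 8 genes, or 4.95 per 1000 expressed genes. C03, C04 and C06 held 4 each, at 1.36, 1.94 and 2.37 per 1000. Without C01 the C subgenome stood at 1.43 per 1000, still above the A subgenome. The 8 genes on C01 did not adjoin each other except as 2 pairs, and their mean levels ran from 1.67 to 42.3 CPM. The 4 genes on C03, the chromosome of BnaC3.LFY, were BnaC03T0190400ZS, BnaC03T0493600ZS, BnaC03T0493700ZS and BnaC03T0764400ZS, with means of 12.2, 6.15, 1.70 and 3.97 CPM. Which gene model is BnaC3.LFY was not established here, so their distance from it is not given.

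**Figure D1:**
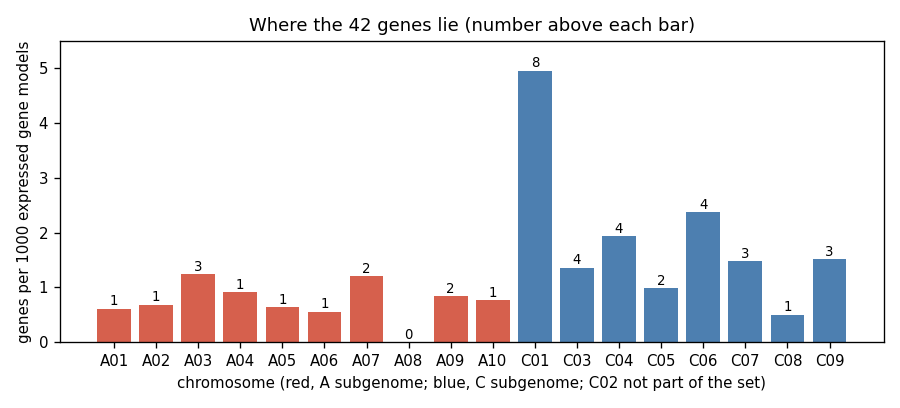
Genes of the set per 1000 gene models at 1 CPM or more in all 9 haplotype 2 libraries, by chromosome, with the number of genes above each bar. C01 stands highest at 4.95 per 1000 with 8 genes, and A08 has 0.

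By read share the set was modest. The mean over the 9 haplotype 2 libraries had a median of 6.67 CPM and ran from 1.67 to 42.3 CPM, and 26 of the 42 genes were under 10 CPM. Over the 33029 expressed genes the median was 12.0 CPM and 43.6% were under 10 CPM. The 10 genes with the most reads held 54.2% of the summed CPM of the set.

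**Figure D2:**
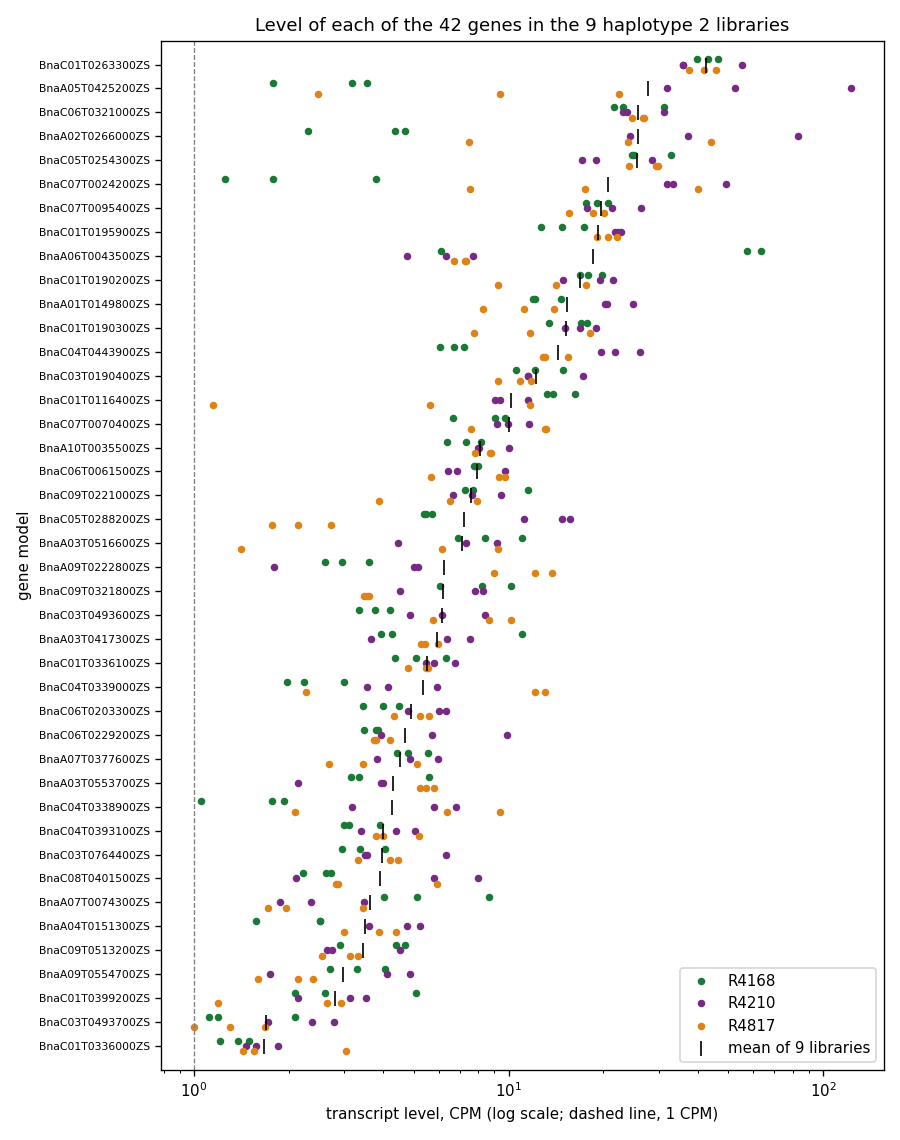
Level of each of the 42 genes in each haplotype 2 library, in CPM on a log axis, ordered by the mean of 9 libraries (black bar), with colours for the accessions and a dashed line at the minimum of 1 CPM. The means run from 1.67 CPM for BnaC01T0336000ZS to 42.3 CPM for BnaC01T0263300ZS, and genes with wide rows, such as BnaA05T0425200ZS, differ between accessions.

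The gene with the most reads was also among the steadiest. BnaC01T0263300ZS had 39.6, 43.1 and 46.2 CPM in the R4168 libraries, 35.9, 35.9 and 55.2 CPM in R4210, and 41.7, 37.5 and 45.7 CPM in R4817. Its accession means of 43.0 ± 3.29, 42.4 ± 11.1 and 41.6 ± 4.07 CPM (SD, n = 3 libraries each) overlapped fully, with 1.03-fold between the highest and the lowest. BnaC06T0321000ZS was as flat, with 31.3, 21.7 and 23.1 CPM in R4168, 23.1, 23.7 and 31.2 in R4210 and 26.7, 24.7 and 27.0 in R4817. Its accessions also differed by 1.03-fold.

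BnaC05T0254300ZS had 24.7, 25.1 and 32.8 CPM in R4168, 18.9, 17.2 and 28.7 in R4210, and 24.1, 29.5 and 29.9 in R4817. BnaC07T0095400ZS had 20.8, 17.7 and 19.1 CPM in R4168, 21.3, 17.7 and 26.4 in R4210, and 20.1, 15.6 and 18.6 in R4817. In both genes the libraries of the accessions overlapped. None of these 4 genes had a count in haplotype 1, and none passed the test among haplotype 2 accessions described next, with adjusted p-values of edgeR's quasi-likelihood F test from 0.301 to 0.991.

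Differences among R4168, R4210 and R4817 were tested with edgeR's quasi-likelihood F test over the 9 haplotype 2 libraries, with Benjamini-Hochberg adjustment over the 53356 genes tested and a threshold of 0.05. The choice of the genes read these libraries only through a common minimum. All 42 genes were tested and 14 were called (33.3%). Of all genes tested 31.3% were called, and of the 33029 expressed genes outside C02 27.8% were, so the share of the set was near the background. The count fell to 9 when replicate 2 of R4168, replicate 3 of R4168 or replicate 3 of R4817 was left out. The called genes differed by 1.49-fold to 24.3-fold between their highest and lowest accession means, and 12 of them by 2-fold or more. The 28 genes not called differed by 1.03-fold to 3.81-fold.

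The spread of accession means in the set was somewhat wider than in expressed genes at large. The ratio of the highest to the lowest accession mean had a median of 1.53 in the set and 1.39 in the background, and 35.7% of the set against 19.2% of the background reached 2-fold. By size, 21 genes were under 1.5-fold, 6 between 1.5-fold and 2-fold, 10 between 2-fold and 4-fold and 5 at 4-fold or more. R4210 had the highest mean for 20 genes and the lowest for 4. R4168 and R4817 each had the highest mean for 11 and the lowest for 19. The same ranking was not counted over the expressed genes, so it is not shown to be particular to the set.

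The libraries of an accession also spread more in the set. The median coefficient of variation between the libraries of an accession was 16.9% in R4168, 23.9% in R4210 and 21.2% in R4817, against 13.9%, 13.9% and 14.9% over the expressed genes. The set also has lower counts than the background, and the role of this in the difference was not tested. The summed level of the 42 genes was 376, 375 and 410 CPM in the R4168 libraries, 448, 627 and 570 CPM in R4210, and 381, 427 and 410 CPM in R4817. All 3 libraries of R4210 lay above all 6 others. This order rested on BnaA05T0425200ZS, BnaA02T0266000ZS and BnaC07T0024200ZS, described below. Without these 3 genes, a sum computed after their values were seen, the levels were 367, 369 and 398 CPM in R4168, 360, 373 and 447 CPM in R4210, and 364, 320 and 359 CPM in R4817, and the R4210 libraries overlapped both other accessions.

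The 3 pairwise contrasts come from the same fit and share libraries, so their counts are given side by side. Between R4168 and R4210, 11 genes were called (26.2%; 19.5% of expressed genes), 2 higher and 9 lower in R4168. Between R4168 and R4817, 12 were called (28.6%; 18.1% of expressed genes), 4 higher and 8 lower in R4168. Between R4210 and R4817, 6 were called (14.3%; 13.9% of expressed genes), 5 higher and 1 lower in R4210. R4168 thus differed from either of the others in more genes of the set than these did from each other. The same held over the expressed genes, and the difference between the counts was not tested. The first count was 7 without replicate 2 of R4168, 6 without its replicate 3 and 7 without replicate 3 of R4210. The second was 6 without replicate 2 of R4168, replicate 3 of R4168 or replicate 3 of R4817, and the last was 2 without replicate 3 of R4817.

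The smallest p-value belonged to BnaC05T0288200ZS. It had 5.69, 5.45 and 5.40 CPM in R4168, 14.8, 15.7 and 11.2 CPM in R4210, and 2.14, 1.77 and 2.73 CPM in R4817. The accessions did not overlap, with R4210 highest and R4817 lowest. The log2 fold change was 2.67 ± 0.22 (SE) for R4210 over R4817 and 1.35 ± 0.22 for R4168 over R4817, with an adjusted p of 3.53e-05 in edgeR's F test. In haplotype 1 the gene had 1 count, in R5159.

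BnaC04T0443900ZS, on another C chromosome, also separated all 3 accessions. Its levels were 7.21, 6.06 and 6.70 CPM in R4168, 19.7, 26.2 and 21.8 in R4210, and 13.1, 15.4 and 12.8 in R4817. R4168 was lowest and R4210 highest, with a log2 fold change of -1.75 ± 0.16 (SE) for R4168 over R4210 and -1.02 ± 0.16 for R4168 over R4817 (edgeR, adjusted p of the F test 8.42e-05). The 3 counts of this gene in haplotype 1 were 1 in R5159 and 2 in R5161.

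In BnaA01T0149800ZS only R4210 differed. The gene had 14.7, 12.2 and 11.9 CPM in R4168, 20.6, 20.3 and 24.8 in R4210, and 13.9, 8.31 and 11.2 in R4817. The R4168 and R4817 libraries overlapped and the R4210 libraries lay above both. The log2 fold change was -0.75 ± 0.18 (SE) for R4168 over R4210 and 1.00 ± 0.18 for R4210 over R4817 (edgeR, adjusted p of the F test 0.00423).

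BnaA09T0222800ZS was highest in R4817. It had 2.61, 2.95 and 3.60 CPM in R4168, 5.15, 1.80 and 4.995 in R4210, and 12.2, 9.02 and 13.7 in R4817. Every R4817 library exceeded every other library, while R4168 and R4210 overlapped. The log2 fold change was -1.89 ± 0.36 (SE) for R4168 over R4817 and -1.52 ± 0.36 for R4210 over R4817 (edgeR, adjusted p of the F test 0.00431).

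A group of 3 genes on 3 chromosomes shared a profile, with the lowest accession mean in R4168 and the highest in R4210. BnaA05T0425200ZS had 3.19, 1.78 and 3.54 CPM in R4168, 31.8, 122.6 and 52.4 in R4210, and 2.48, 22.4 and 9.43 in R4817. BnaA02T0266000ZS had 4.34, 2.30 and 4.68 CPM in R4168, 24.3, 83.02 and 37.3 in R4210, and 7.47, 44.0 and 23.9 in R4817. BnaC07T0024200ZS had 1.25, 1.78 and 3.78 CPM in R4168, 31.9, 49.2 and 33.3 in R4210, and 7.51, 39.9 and 17.5 in R4817.

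In all 3 genes replicate 2 was the highest library of R4210, and in R4817 replicate 2 was highest and replicate 1 lowest. These genes held the widest ratios of the set, 24.3-fold, 12.8-fold and 16.8-fold between accession means, and 69.0-fold between the extreme libraries of BnaA05T0425200ZS. The log2 fold change of R4168 over R4210 was -4.59 ± 0.80 (SE) for BnaA05T0425200ZS, -3.66 ± 0.68 for BnaA02T0266000ZS and -4.05 ± 0.63 for BnaC07T0024200ZS. Their adjusted p-values in edgeR's F test were 0.00294, 0.00713 and 0.00273. R4210 over R4817 was called only for BnaA05T0425200ZS (edgeR, adjusted p 0.0338), and not for BnaA02T0266000ZS (0.343) or BnaC07T0024200ZS (0.366). R4168 over R4817 was called for BnaA02T0266000ZS (0.016) and BnaC07T0024200ZS (0.00476) but not for BnaA05T0425200ZS (0.0879). Replicates 1 and 2 of R4817 were also the pair of haplotype 2 libraries that differed most over all genes, as given above, and the part this plays in the shared profile was not tested.

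BnaA06T0043500ZS was high in 2 libraries of 1 accession. It had 6.11, 57.4 and 63.6 CPM in R4168, 7.69, 6.30 and 4.74 in R4210, and 6.72, 7.34 and 7.29 in R4817. Replicate 1 of R4168 lay within the range of the other accessions. The F test gave an adjusted p of 0.00939 with edgeR. The call held in 13 of 15 other fits, the one without replicate 2 of R4168 among them, and was lost without replicate 3 of R4168 (0.0502) and with limma-voom (0.175).

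**Figure D3:**
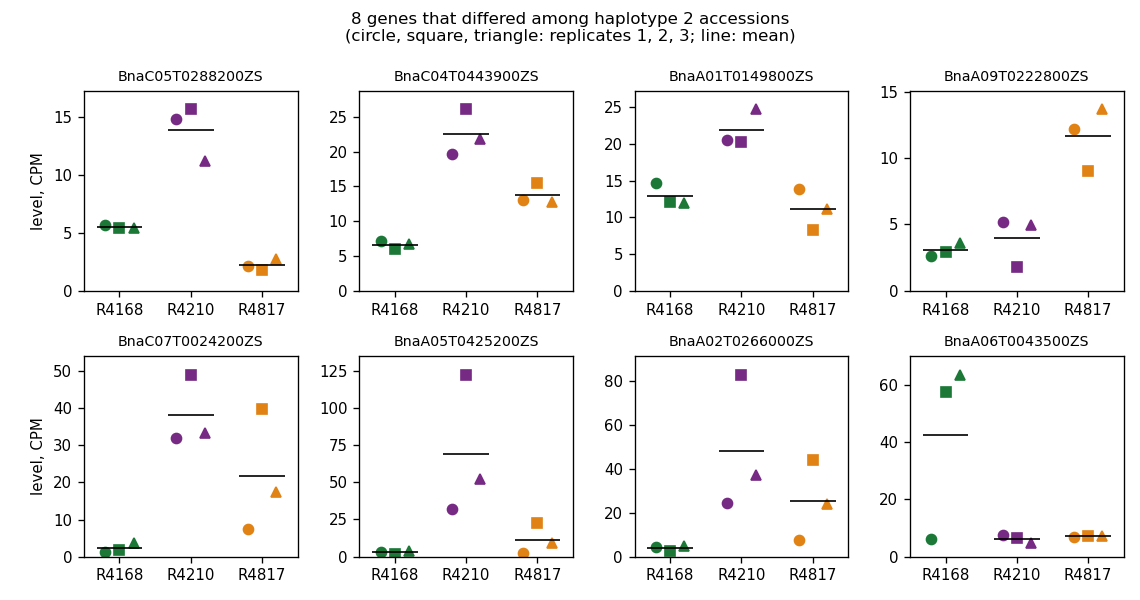
Levels in CPM of 8 called genes in the 3 haplotype 2 accessions, with circles, squares and triangles for replicates 1, 2 and 3 and a line at the accession mean. R4817 is lowest for BnaC05T0288200ZS and highest for BnaA09T0222800ZS, and 3 genes of the lower row have their lowest mean in R4168 and highest in R4210.

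BnaC01T0195900ZS was lower in R4168, with 17.4, 14.8 and 12.7 CPM against 21.8, 22.3 and 22.7 in R4210 and 22.04, 20.7 and 19.1 in R4817. The R4168 libraries lay below all others, and R4210 and R4817 overlapped. The size was small, with a log2 fold change of -0.57 ± 0.14 (SE) for R4168 over R4210 (edgeR, adjusted p of the F test 0.0223). Without replicate 2 or replicate 3 of R4168, or replicate 3 of R4210, its adjusted p was 0.0659, 0.086 and 0.0509, and it was 0.194 with all 18 libraries in the fit. Of its 3 counts in haplotype 1, 1 was in R5044 and 2 were in R5161.

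The other called genes were BnaC09T0321800ZS, BnaA07T0074300ZS and BnaA04T0151300ZS, named here because they complete the 14, and BnaC03T0493600ZS and BnaC04T0338900ZS, described with their neighbours below. BnaC09T0321800ZS had 10.2, 8.24 and 6.05 CPM in R4168, 7.82, 4.50 and 8.30 in R4210, and 3.61, 3.54 and 3.46 in R4817, with an adjusted p of 0.0148 in edgeR's F test. Every R4817 library lay below all others. BnaA07T0074300ZS was highest in R4168 (5.94 ± 2.42 CPM, SD, n = 3) against 2.57 ± 0.82 in R4210 and 2.38 ± 0.93 in R4817 (edgeR, adjusted p 0.0288). BnaA04T0151300ZS was lowest in R4168 (2.199 ± 0.54 CPM) against 4.53 ± 0.84 in R4210 and 3.75 ± 0.69 in R4817 (edgeR, adjusted p 0.0445).

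Of the 14 calls, 7 held in each of 15 other fits, which changed the tool, the scaling, the filter, the libraries or the replicate term. These were the calls of BnaA01T0149800ZS, BnaA02T0266000ZS, BnaA05T0425200ZS, BnaA09T0222800ZS, BnaC04T0443900ZS, BnaC05T0288200ZS and BnaC07T0024200ZS. The call of BnaA04T0151300ZS held in 5 of the 15, and that of BnaA07T0074300ZS in 10.

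Of the genes not called, 2 had a markedly low replicate 2 of R4817. BnaC01T0116400ZS had 11.7, 1.15 and 5.65 CPM in R4817 and BnaA03T0516600ZS had 9.28, 1.42 and 6.15 CPM there. They are named because of these values, which were seen first. The adjusted p of edgeR's F test was 0.222 and 0.566. Replicate 2 of R4817 was the lowest library for 11 of the 42 genes and replicate 2 of R4168 for 10. These counts were not made over the expressed genes.

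The 42 genes included 4 pairs of adjoining gene models. BnaC01T0190200ZS and BnaC01T0190300ZS followed similar courses over the libraries. The first had 16.9, 17.9 and 19.8 CPM in R4168, 15.0, 19.5 and 21.5 in R4210, and 17.6, 9.24 and 14.1 in R4817. The second had 17.0, 13.4 and 17.7, then 15.1, 16.9 and 19.0, and then 18.2, 7.74 and 11.7 CPM. Replicate 2 of R4817 was the lowest library of both. Neither passed the test among accessions (edgeR's F test, adjusted p 0.2 and 0.329), though the second passed without replicate 1 of R4817, at an adjusted p of 0.0269.

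Neither BnaC01T0336000ZS nor BnaC01T0336100ZS passed the test among accessions. The first had 1.38, 1.49 and 1.21 CPM in R4168, 1.85, 1.46 and 1.58 in R4210, and 1.43, 3.05 and 1.55 in R4817, the lowest mean of the set. The second had 6.34, 4.36 and 5.09, then 5.48, 5.79 and 6.76, and then 5.46, 5.53 and 4.78 CPM. The libraries of the accessions overlapped in both (edgeR's F test, adjusted p 0.526 and 0.629), and neither had a count in haplotype 1.

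On C03, BnaC03T0493600ZS had 3.35, 4.20 and 3.75 CPM in R4168, 6.14, 4.85 and 8.41 in R4210, and 10.2, 5.75 and 8.70 in R4817. R4168 lay below both others, with a log2 fold change of -1.08 ± 0.27 (SE) for R4168 over R4817 (edgeR, adjusted p of the F test 0.0282). The call was lost without any 1 of the R4168 libraries or without replicate 3 of R4817, at adjusted p-values of 0.0543 to 0.0891, and with all 18 libraries in the fit (0.0534). Its partner BnaC03T0493700ZS had 1.19, 2.10 and 1.12, then 2.38, 1.72 and 2.79, and then 1.30, 1.68 and 1.00 CPM, overlapping between accessions (adjusted p 0.243 in edgeR's F test).

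On C04, BnaC04T0338900ZS had 1.77, 1.94 and 1.05 CPM in R4168, 6.80, 3.17 and 5.80 in R4210, and 2.10, 9.42 and 6.37 in R4817. BnaC04T0339000ZS had 2.99, 1.98 and 2.23, then 4.13, 3.56 and 5.91, and then 2.27, 13.0 and 12.1 CPM. In both genes R4168 had the lowest mean and replicate 1 of R4817 lay far below the other libraries of that accession. The first was called at an adjusted p of 0.0431 in edgeR's F test, which ranged from 0.0735 to 0.158 in the 8 of 15 other fits that lost it. The second was not called at 0.0517, and without replicate 1 of R4817 it was at 0.000235. Its 3 counts in haplotype 1 were 2 in R5044 and 1 in R5161.

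Among the 3 genes with the fewest reads, besides BnaC01T0336000ZS and BnaC03T0493700ZS, was BnaC01T0399200ZS, with a mean of 2.82 CPM and 0 counts in haplotype 1. At this level its bound was at least 287-fold. BnaA09T0554700ZS, with 3 counts in haplotype 1, had 2.70, 4.04 and 3.29 CPM in R4168, 1.75, 4.85 and 4.11 in R4210, and 2.39, 1.59 and 2.14 in R4817. Its accessions overlapped (edgeR's F test, adjusted p 0.223).

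The gene models beside the 42 genes were read next. An adjoining model that met both limits was itself taken into the set, so the neighbours are models that missed at least 1 of these limits, and their haplotype contrast is not fully separate from the choice. The 5 models before and the 5 after each gene in the order of the table gave 380 neighbours, of which 217 had enough counts to test and 163 did not. The haplotypes were compared over accession sums, 3 against 3, with edgeR's quasi-likelihood test and Benjamini-Hochberg adjustment over 57827 genes. Of the 217 neighbours, 32 were lower in haplotype 1 (14.7%), where 7.57% of all genes tested were, and 18 were higher (8.29%), where 6.13% of all genes tested were. The remaining 167 were not called. In all 32 lower neighbours the 3 haplotype 1 accession means lay below the 3 of haplotype 2. This largely follows from a call on 3 against 3 sums and adds no separate evidence.

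Most expressed neighbours were expressed in both haplotypes. Of 133 neighbours at 1 CPM or more in all 9 haplotype 2 libraries, 115 (86.5%) were so in all 9 haplotype 1 libraries too, and over all genes outside C02 the share was 87.1%. The median log2 fold change of haplotype 1 over haplotype 2 was -0.06 among tested neighbours and -0.03 among all tested genes. The interquartile range was -1.01 to 0.64 among the neighbours and -0.75 to 0.57 among all tested genes. The medians were thus close, while the lower quartile was lower among the neighbours.

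The share of lower calls was highest directly beside the genes, and so was that of higher calls. Of 44 tested models next to 1 of the 42 genes, 10 were lower (22.7%) and 5 were higher (11.4%). At 2 to 5 models away 22 of 173 were lower (12.7%), and at 6 to 10 models away 18 of 191 were (9.42%), with 10 higher. Higher calls made up 8.29% of tested models within 5 of the genes and 6.86% within 10, against 6.13% of all genes tested. Of the 42 genes, 23 had at least 1 lower neighbour and 9 had 2 or more. Adjoining genes of the set share neighbours, and the same was not counted around other genes, so these counts have no background. The difference between the distances was not tested.

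These counts depended on each accession. Without R4210 only 2 neighbours were lower and 0 were higher with edgeR, with 44 and 35 at an unadjusted p under 0.05. Without R4168, R4817, R5044, R5159 or R5161 the lower counts were 21, 12, 14, 10 and 13, and the higher counts were 10, 4, 5, 3 and 4. The background fell with them, and the lower share stayed above it, for example 0.905% against 0.378% without R4210. DESeq2 on the same sums called 58 lower and 42 higher. A fit of the 18 single libraries, whose error is the scatter within accessions, called 85 and 68.

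**Figure D4:**
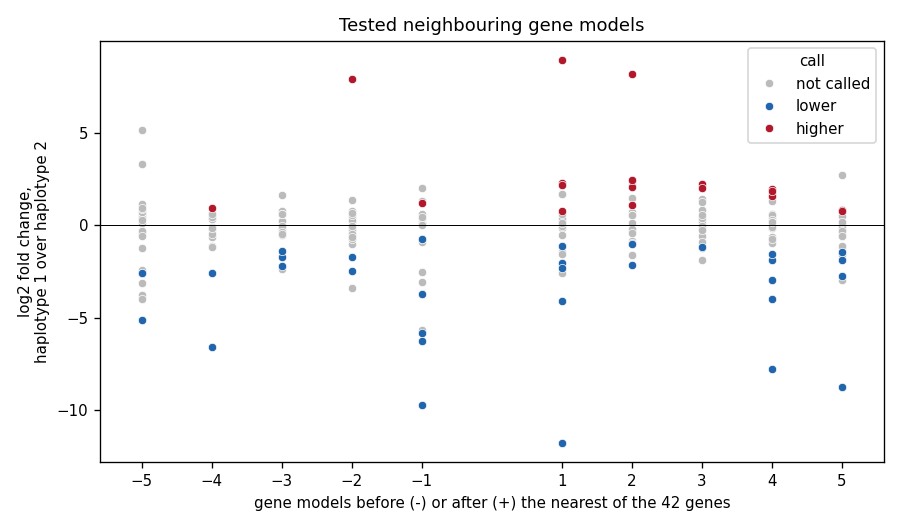
Log2 fold change, haplotype 1 over haplotype 2, of the 217 tested neighbours against their distance in gene models from the nearest of the 42 genes, coloured by the call at an adjusted p of 0.05. Most points lie near 0 (median -0.06), with 32 called lower and 18 called higher at all distances.

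The lowest fold change among called neighbours was that of BnaC04T0393200ZS, directly after BnaC04T0393100ZS of the set. It had 52.0, 51.7 and 52.2 CPM in R4168 and 65.4, 57.9 and 72.4 in R4210, but 2.01, 0.708 and 2.28 in R4817, and 3 counts over haplotype 1. It missed the choice through 1 library of R4817. The ratio of haplotype 2 to haplotype 1 was 4215 (exact 95% interval of the ratio from 1440 to 20400, counting error only), at an adjusted p of 0.022 in edgeR's test. The call was lost, at adjusted p-values of 0.0699 to 0.072, without R4210, R5044, R5159 or R5161.

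The model on the other side, BnaC04T0393000ZS, named here after its values were seen, was also lower in haplotype 1. It had 2 counts there, and accession means of 0.647, 0.558 and 0.657 CPM in haplotype 2, a ratio of 92.4 (25.1 to 770) at an adjusted p of 0.024 in edgeR's test. BnaC04T0393100ZS itself had means of 3.34 ± 0.50, 4.28 ± 0.83 and 4.31 ± 0.75 CPM (SD, n = 3) in R4168, R4210 and R4817 and no count in haplotype 1. So 3 adjoining models were low in all haplotype 1 accessions, while BnaC04T0393300ZS, the next along, had 25.2, 16.3 and 14.8 CPM in R5044, R5159 and R5161.

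BnaC01T0263200ZS lies directly before BnaC01T0263300ZS, the gene with the most reads. It had 1.19, 0.808 and 1.27 CPM in R4168, 0.924, 0.772 and 1.07 in R4210, and 1.13, 1.59 and 1.73 in R4817, and 0 counts in all haplotype 1 libraries. Haplotype 2 was at least 116-fold higher, at an adjusted p of 0.0155 in edgeR's test. The call was lost without R4210 (adjusted p 0.0666) or R4817 (0.0515).

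BnaC07T0024200ZS had 3 lower neighbours, all after it. None of the neighbours before it had enough counts to test. BnaC07T0024700ZS had 4.28, 3.60 and 3.26 CPM in R4168, 5.81, 4.12 and 4.52 in R4210, and 3.19, 0 and 1.82 in R4817, with 2 counts in haplotype 1 and a ratio of 530 (146 to 4390). Its adjusted p in edgeR's test was 0.0173, and 0.066 without R4210 and 0.0526 without R5159. BnaC07T0024300ZS, named after its values were seen, had means of 0.480, 0.559 and 0.517 CPM in R5044, R5159 and R5161 against 9.23, 11.8 and 7.23 in R4168, R4210 and R4817, a log2 fold change of -4.11 ± 0.29 (SE; edgeR, adjusted p 0.00836). Unlike BnaC07T0024200ZS itself, these neighbours were not low in R4168.

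BnaA03T0517000ZS, 4 models after BnaA03T0516600ZS, had 14.8, 11.1 and 11.6 CPM in R4168, 1.16, 2.27 and 0.698 in R4210, and 26.7, 6.24 and 16.6 in R4817. It had 14 counts in haplotype 1, 3 in R5044 and 11 in R5161. Its log2 fold change was -7.77 ± 1.58 (SE; edgeR, adjusted p 0.0337), and the call was lost with any of the 6 accessions left out, at adjusted p-values of 0.0642 to 0.0972.

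Genes of the opposite pattern lay directly beside the set as well. BnaC04T0339100ZS and BnaC04T0339200ZS follow the pair BnaC04T0338900ZS and BnaC04T0339000ZS, and both were higher in haplotype 1. BnaC04T0339100ZS had 0.934, 1.42 and 1.04 CPM in R5044, 0.846, 0.774 and 0.247 in R5159, and 0, 0.199 and 0.651 in R5161. It had 0 counts in haplotype 2, so haplotype 1 was at least 54.0-fold higher (edgeR, adjusted p 0.0282).

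BnaC04T0339200ZS had 2.08, 1.48 and 2.48 CPM in R5044, 2.23, 2.67 and 2.44 in R5159, and 0.191, 0.997 and 0.434 in R5161, against 1 count in haplotype 2. The ratio of haplotype 1 to haplotype 2 was 378 (67.5 to 14900), at an adjusted p of 0.0206 in edgeR's test. R5161 was the lowest haplotype 1 accession for both genes. The call of BnaC04T0339100ZS was lost with any of the 6 accessions left out (adjusted p 0.0504 to 0.0877), and that of BnaC04T0339200ZS with any but R5161 (0.0513 to 0.0766). BnaC04T0338700ZS, 2 models before the pair, was at similar levels in both haplotypes, with means of 11.9, 12.7 and 10.1 CPM in R5044, R5159 and R5161 and 13.9, 13.5 and 13.6 CPM in R4168, R4210 and R4817. Along 6 models the table thus passed from a gene expressed in all accessions, over 1 model with 0 counts, to 2 read in haplotype 2 and then 2 read in haplotype 1.

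Models called higher in haplotype 1 lay near other genes of the set as well, and 2 of these places are described, picked out after the values were seen. On C03, BnaC03T0190200ZS had means of 2.87, 1.84 and 2.62 CPM in R5044, R5159 and R5161 against 2 counts in haplotype 2, a ratio of 288 (79.6 to 2390) at an adjusted p of 0.02 in edgeR's test. Replicate 3 of R5159 had 0.0309 CPM, far below the 2 other libraries of that accession. BnaC03T0190300ZS, the next model, was read in every accession and was higher in haplotype 1, with means of 97.4, 91.8 and 101 CPM against 43.6, 38.4 and 46.1 CPM and a log2 fold change of 1.21 ± 0.13 (SE; edgeR, adjusted p 0.0121).

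BnaC03T0190400ZS of the set follows, with 12.5 ± 2.18, 13.4 ± 3.34 and 10.6 ± 1.27 CPM (SD, n = 3) in R4168, R4210 and R4817 and no count in haplotype 1. BnaC03T0190500ZS, after it, had 10.3, 9.60 and 8.58 CPM in R5044, R5159 and R5161 and 7.18, 12.5 and 9.56 CPM in R4168, R4210 and R4817. The set gene thus lay between models read in all accessions.

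On A04, BnaA04T0151200ZS was lower in haplotype 1 and BnaA04T0151400ZS was higher, on either side of BnaA04T0151300ZS. The first had means of 0.0385, 0.0451 and 0.0161 CPM in R5044, R5159 and R5161 and 1.12, 2.39 and 2.69 CPM in R4168, R4210 and R4817. The second had 1.05, 1.75 and 1.31 CPM against 0.391, 0.333 and 0.175 CPM. Their log2 fold changes were -5.84 ± 0.63 and 2.27 ± 0.48 (SE), at adjusted p-values of 0.0125 and 0.0362 in edgeR's test. The higher calls of BnaC03T0190200ZS, BnaC03T0190300ZS and BnaA04T0151400ZS were lost without R4210, where no neighbour was called higher. For lower neighbours named after their values were seen, results with an accession left out are not given.

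At the other C03 pair, BnaC03T0493500ZS directly precedes BnaC03T0493600ZS. It had accession means of 5.45, 5.01 and 5.21 CPM in haplotype 2 and 32 counts in haplotype 1, of which 30 were in R5161, 2 in R5159 and 0 in R5044. The adjusted p in edgeR's test was 0.0635, so it was not called. It was the only neighbour at 1 CPM or more in all 9 haplotype 2 libraries with 40 or fewer counts in haplotype 1. Together with the pair it makes a run of 3 models read in haplotype 2, of which the first also had reads in R5161.

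**Figure D5:**
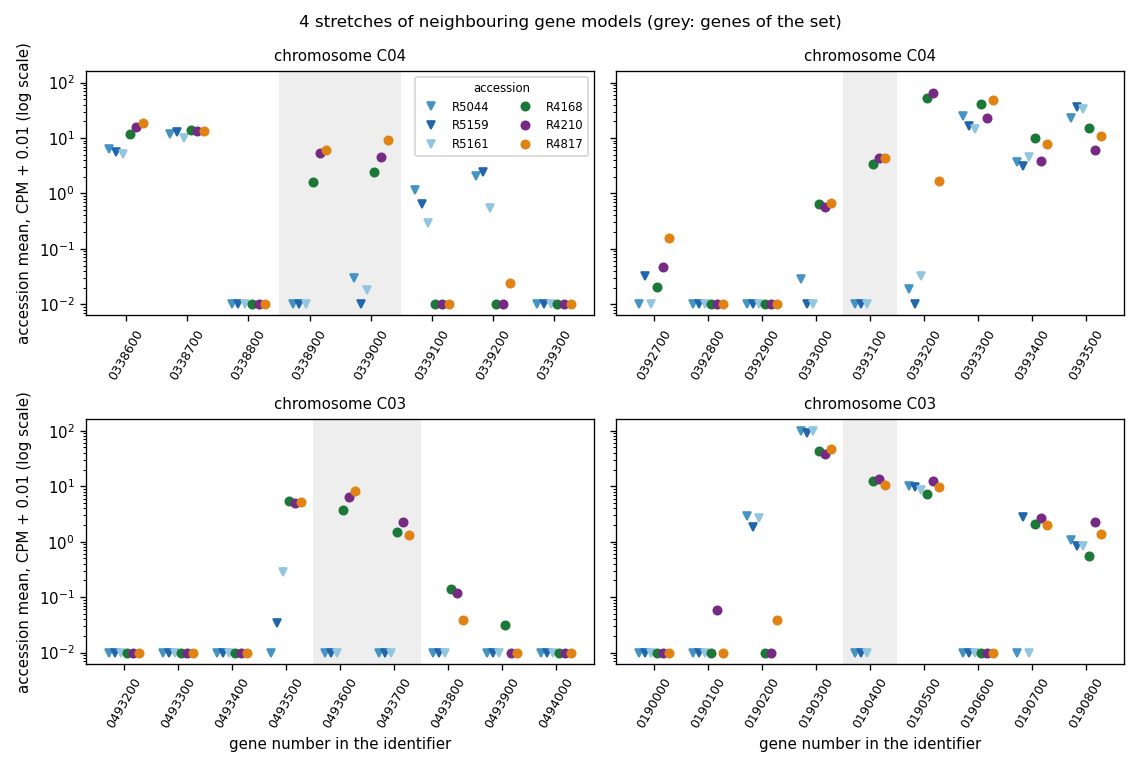
Accession means (CPM + 0.01, log axis) along 4 stretches of gene models in table order on C04 and C03, with triangles for haplotype 1 accessions, circles for haplotype 2 accessions and grey bands for genes of the set. In the first panel 2 set genes are followed by 2 models read only in haplotype 1 apart from 1 count in R4817, and in the last the set gene lies between models read in all accessions.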

How the data were processed

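Poly(A) RNA was sequenced from shoot apices of 6 accessions, 3 libraries each. The values the authors deposited are unnormalized read counts for each gene model, whole numbers in a single table. The submitters' processing notes list HISAT2 2.2.1 and featureCounts, with no settings. Not given in the sources used here are the genome build, annotation, strand mode and handling of reads with several alignments, and any of these could empty or fill a row. Columns were assigned by accession and replicate in the titles.

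The members of the set and the tests were chosen with earlier results of these data known. CPM used the column totals. Tests ran in R 4.3.3 with edgeR 4.0.16 (TMM, filterByExpr by accession or haplotype, quasi-likelihood), checked on simulated data; alternatives used DESeq2 1.42.0 and limma 3.58.1. SEs are the log2 fold change over the root of F. Ratio intervals are exact binomial at 95% and cover counting error only.

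Genes were named by a rule: the 10 highest and 3 lowest means, the 6 smallest F test p-values, adjoining members, up to 3 with counts in haplotype 1, 3 outside each limit, and the 4 lowest and 2 highest called neighbours. Others named were chosen after their values were seen.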

Additional observations from a re-analysis of the deposited data

How the results depend on the processing

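The number of genes was 73 at a minimum of 0.5 CPM, and 26, 74 and 146 when at most 0, 10 and 30 counts were allowed in haplotype 1, and ran from 47 to 109 with an accession not read. It was 28 at a minimum of 2 CPM and 41 on TMM library sizes. The count of 14 genes that differed among haplotype 2 accessions ran from 9 to 16 with a library left out and from 12 to 15 under the other tools, scalings and filters. Its share was above the background in 14 of 15 fits, which reuse the same libraries. Among these the gap was narrowest with all 18 libraries in the fit (28.6% against 28.3%). It was widest without replicate 2 of R4210 (31% against 22.6%). The pair counts ran from 6 to 12 for R4168 and R4210, 6 to 14 for R4168 and R4817 and 2 to 8 for R4210 and R4817 with a library left out. Whether the replicate numbers pair the libraries is not stated, and the main fits did not treat them as pairing. Same-numbered libraries of 2 accessions had correlations of their deviations from -0.0055 to 0.11 over 9 pairs, and the other 18 pairs from -0.11 to 0.07. With a replicate block 12 genes were called, all among the 14, and 8, 8 and 5 in the pairs. The neighbours called lower and higher were 85 and 68 in the fit of 18 libraries, 84 and 69 with the replicate block in that fit, 58 and 42 with DESeq2, 25 and 10 with no low count filter, 10 and 5 for 1 model on each side and 50 and 28 for 10 models. With an accession left out they ran from 2 to 21 and from 0 to 10. The share of lower calls was above its background in 13 of 13 alternatives and that of higher calls in 11 of 13. The exceptions were the higher calls without R4210 (0% against 0.14%) and without R4817 (1.79% against 1.92%), and the F test without replicate 1 of R4168 (23.8% against 24.1%). No fold change of a neighbour named by the rule changed sign under these alternatives. The signs for neighbours named after their values were seen were not followed, and the causes of the changes were not tested. Low counts in haplotype 1 limit the precision of every ratio given.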
